A study of Mus musculus with 12 samples.

Results

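The control state of RAW 264.7 cells was described from the 4 scramble arrays of a study of miR-223. RAW 264.7 is an adherent mouse monocyte/macrophage line that was transformed by Abelson murine leukaemia virus. The cells had been transfected with an irrelevant scramble oligonucleotide and collected after 48 h, so every value below is that of transfected cells, and untransfected cells were not analysed here. The 4 arrays are titled as biological replicates 1 to 4. Nothing in the labels says that they came from separate cultures, so the spread between them may be partly technical. The other 8 of the 12 arrays, 4 with the mimic pre-miR-223 and 4 with the inhibitor anti-miR-223, entered only to show how some genes varied within their own groups. The table held 41345 rows, of which 23521 carried exactly 1 gene symbol. With the brightest row taken for each symbol, 22180 genes were measured, and they were ranked by the mean log2 signal of the 4 scramble arrays.

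Macrophages engulf particles, digest them in lysosomes and report microbes through pattern recognition receptors and secreted cytokines. Their survival depends on signalling through the receptor for colony stimulating factor 1, encoded by Csf1r, and their identity on the transcription factor PU.1, encoded by Spi1, which binds purine-rich sites with a GAGGAA core. A cell line that divides without limit adds the programmes of DNA replication, mitosis and protein synthesis to this phagocyte state. RAW 264.7 cells are widely used as a stand-in for macrophages and as precursors that can form osteoclasts.

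No detection call accompanies the signals. A background level was therefore taken from olfactory and vomeronasal receptor genes, sensory receptors that have no known general role in macrophages. Their 1394 genes had a median log2 signal of 1.47, and their 95th percentile, log2 2.46, served as the background level. By that level 10952 of 22180 genes (49.4%) had a mean above background, and 10049 genes (45.3%) lay above it on each of the 4 arrays. Among protein-coding genes the share was 10214 of 18961 (53.9%). Each count of list members above background given below is to be read beside these shares. The means ran from log2 0.91 to 12.31. Probe sets differ in how brightly they report the same amount of RNA, so a rank here is a rank of array signal and not of RNA molecules.

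**Figure D1:**
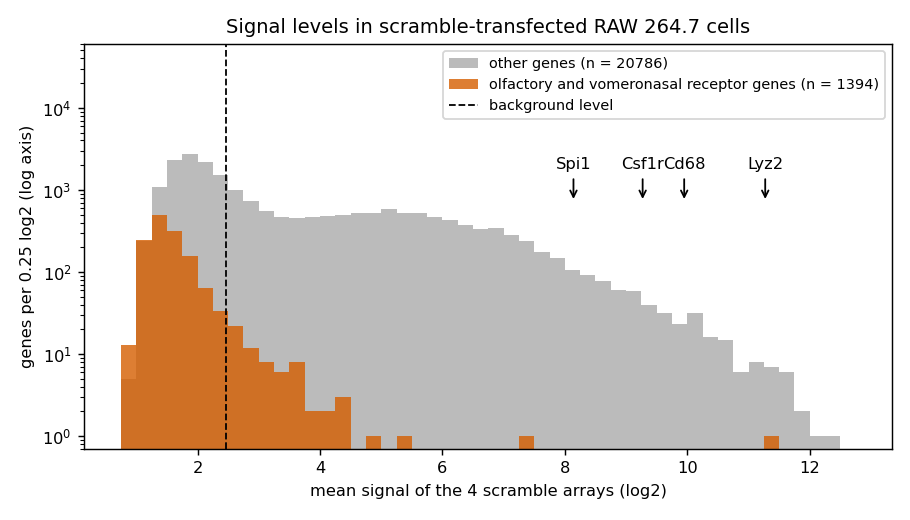
Number of genes (log axis) in steps of 0.25 log2 of the mean signal over the 4 scramble arrays, for 1394 olfactory and vomeronasal receptor genes and for all other genes; the dashed line is the background level of log2 2.46. The receptor genes pile up below the line, with 9 genes over log2 4, while Spi1, Csf1r, Cd68 and Lyz2 (arrows) lie between log2 8.14 and 11.27.

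All 4 genes that define the macrophage label were far above background. Lyz2, the macrophage lysozyme, read log2 11.16, 11.41, 11.21 and 11.30 on replicates 1 to 4, a mean of 11.27 ± 0.11 (SD, n = 4), and ranked 18th of 22180 genes. Cd68, a glycoprotein of lysosomal membranes in phagocytes, read 10.07, 10.07, 9.76 and 9.89 (9.95 ± 0.15, rank 99). Csf1r read 9.28, 9.52, 9.05 and 9.22 (9.27 ± 0.19, rank 186). The 4 arrays lay close together for each of these markers. Spi1 read 8.18, 8.40, 7.97 and 8.004 (8.14 ± 0.20, rank 511).

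Lyz1, the paralogue of Lyz2 that is best known from Paneth cells of the gut, also gave a high signal, at 11.52, 11.83, 11.44 and 11.50 (11.57 ± 0.18, rank 8). Because Lyz1 and Lyz2 are near-identical copies that lie next to each other on chromosome 10, array probes may not tell their transcripts apart, and the signal of each is uncertain. Their upstream sequences are shown because these 2 bright genes share bases at their start sites. The 250 bases before each RefSeq start site (GRCm38.p6, both on the minus strand) are printed along the gene. They lie at chr10:117282273-117282522 for Lyz2 and chr10:117292869-117293118 for Lyz1. Compared position by position from the start site, without alignment or gaps, they were identical at 152 positions (60.8%). An inserted or missing base lowers such a count, so it is not a measure of how alike the 2 regions are. The capitals mark their longest shared run, 50 bases that end at the start site.
Lyz2: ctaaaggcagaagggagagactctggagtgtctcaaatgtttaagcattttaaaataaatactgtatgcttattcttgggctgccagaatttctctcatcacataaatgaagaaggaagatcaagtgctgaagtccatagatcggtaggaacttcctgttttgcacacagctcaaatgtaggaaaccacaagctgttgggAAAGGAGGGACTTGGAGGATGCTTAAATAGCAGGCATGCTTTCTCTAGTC
Lyz1: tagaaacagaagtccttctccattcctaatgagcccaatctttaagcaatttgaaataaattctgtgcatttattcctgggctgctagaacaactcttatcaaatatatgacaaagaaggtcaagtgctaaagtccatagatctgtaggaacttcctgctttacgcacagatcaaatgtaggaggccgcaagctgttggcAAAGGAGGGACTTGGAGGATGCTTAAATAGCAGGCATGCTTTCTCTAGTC

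The wider list of macrophage identity genes gave the same picture, with 22 of 23 genes above background, against 49.4% of all genes, and a median signal of log2 8.21. Ctss, a lysosomal cysteine protease, reached 10.20 ± 0.12, Tyrobp, an adaptor of activating receptors, 9.45 ± 0.09, and Mpeg1, a pore-forming protein of phagosomes, 8.85 ± 0.11. Ptprc, the pan-leukocyte phosphatase CD45, stood at 8.58 ± 0.12 and Adgre1, which encodes the F4/80 antigen, at 7.02 ± 0.10. These genes had SDs of at most 0.12, whereas Fcer1g, the Fc receptor gamma chain, read 9.40, 9.08, 8.50 and 8.72, an SD of 0.40. Fcer1g was thus highest on replicate 1 and lowest on replicate 3. The list also had a dim end. C5ar1, the receptor for complement fragment C5a, was at 4.10 ± 0.18, Aif1 at 3.94 ± 0.20 and Mertk, a receptor for apoptotic cells, at 2.47 ± 0.15, close to the background level. Mrc1, the mannose receptor of alternatively activated and many resident macrophages, was not above it (1.78, 1.93, 1.92 and 1.87).

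Cd68 and Itgam, the integrin alpha chain CD11b (7.99, 8.24, 7.84 and 8.13; mean 8.05), carry the PU.1 core in the 250 bases before their start sites, and their sequences are printed to show where. The capitals mark GAGGAA or its complement TTCCTC; positions count back from the start site, with -1 the base before it. In Cd68 (chr11:69666171-69666420, minus strand) the match begins at -225, and in Itgam (chr7:128062390-128062639, plus strand) matches begin at -84 and -15.
Cd68: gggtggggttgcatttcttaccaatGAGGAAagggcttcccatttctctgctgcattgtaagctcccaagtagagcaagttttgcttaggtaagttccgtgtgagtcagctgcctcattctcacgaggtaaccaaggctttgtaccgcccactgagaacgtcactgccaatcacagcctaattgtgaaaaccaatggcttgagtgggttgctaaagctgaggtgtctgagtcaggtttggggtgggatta
Itgam: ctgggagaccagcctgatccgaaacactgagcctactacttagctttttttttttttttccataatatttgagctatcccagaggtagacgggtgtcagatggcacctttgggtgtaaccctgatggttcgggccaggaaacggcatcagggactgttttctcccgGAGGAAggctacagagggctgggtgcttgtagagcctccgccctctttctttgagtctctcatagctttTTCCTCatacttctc
A match to 6 letters is common: on both strands, 27.0% of the 15358 protein-coding promoters in the RefSeq table held it, counted over 250 bases before to 50 after the start. The table held promoters for 16 of the 23 identity genes (69.6%), too few for a share over the list, so the comparison of identity genes with all genes is void. Not all of these 16 held a match: Lyz2, the marker with the highest signal, held none.

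**Figure D2:**
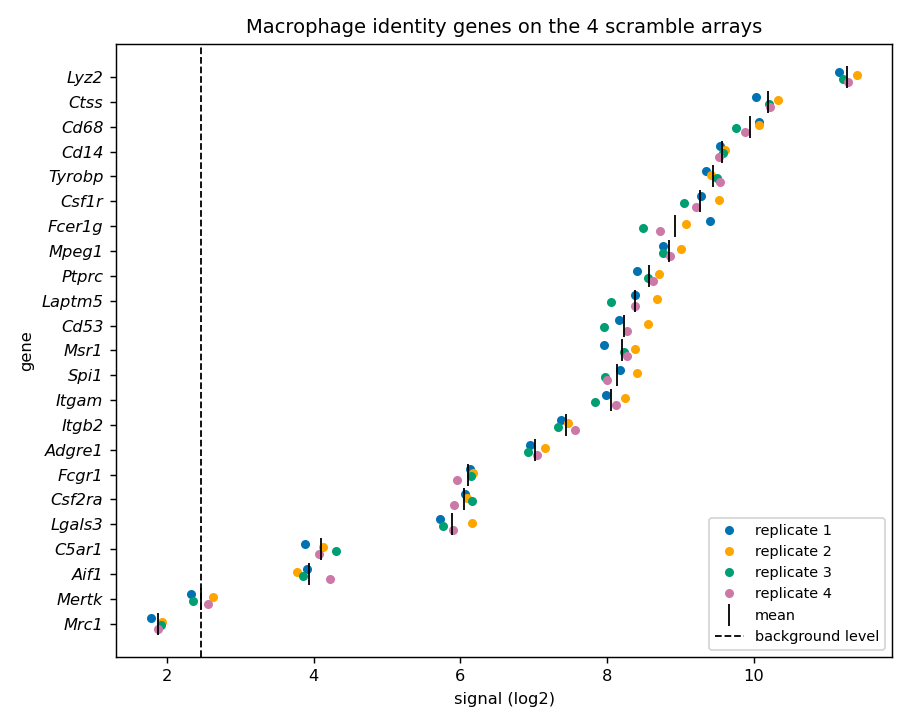
Log2 signal of the 23 macrophage identity genes on each of the 4 scramble arrays (points, 1 colour per replicate), with the mean as a bar; the dashed line is the background level of log2 2.46. Lyz2 is the brightest at 11.27 and Mrc1, at 1.87, is the gene left of the line.

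Transcription factors of the myeloid lineage were mostly above background, 18 of 20 with a median of log2 5.51. Examples beside Spi1 were Stat6, the transducer of interleukin 4 signals (7.39 ± 0.09), Cebpb (6.92 ± 0.17), Runx1 (6.70 ± 0.09) and Irf8, a partner of PU.1 (6.42 ± 0.05). Cebpa, a myeloid lineage factor, was at 5.52 ± 0.22. Maf (1.92 ± 0.16) and Irf4 (2.07 ± 0.25) were the members not above background. Of factors that specify resident macrophages of single tissues 5 of 9 were above background, near the 49.4% of all genes, with a median of 2.51; 3 of 9 were above it on each array. Nr1h3, the lipid sensor LXR alpha, gave the highest signal of them at 3.71 ± 0.26. Gata6 of peritoneal macrophages (2.45 ± 0.06), Pparg of alveolar macrophages (2.01 ± 0.18), Sall1 of microglia (1.94 ± 0.11) and Spic of red pulp macrophages (1.67 ± 0.10) were not above it.

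Receptors for antibody, complement and carbohydrate were above background in 17 of 19 cases, with a median of log2 5.25. Lilrb4a, an inhibitory receptor of myeloid cells, led at 10.34, 10.44, 10.23 and 10.36 (10.34 ± 0.09), with nearly the same signal on all 4 arrays. Trem2, a lipid receptor that signals through Tyrobp, was at 8.38 ± 0.08 and the lectin Clec4d at 8.10 ± 0.12. Trem1, which amplifies inflammatory signals, was not above background (2.34 ± 0.17), nor was the lectin Clec4n (1.94 ± 0.34). Scavenger and apoptotic cell receptors fell into 2 tiers with no gene between log2 2.62 and 7.27. Cd36, which takes up oxidised lipoproteins, read 8.33, 8.67, 8.87 and 9.06 (8.74 ± 0.31), Msr1, the class A scavenger receptor, 8.21 ± 0.18, Lrp1 8.18 ± 0.17 and Scarb1, a receptor for high density lipoprotein, 7.27 ± 0.27. The other 10 receptors lay at 2.62 or less. They included Timd4 (1.85 ± 0.14), Olr1 (1.90 ± 0.10) and Stab2 (1.73 ± 0.07), which were not above background; 7 of the 14 genes of the list were, about the share of all genes (49.4%).

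Of Toll-like receptors and their adaptors 21 of 23 were above background (median log2 4.51), against 49.4% of all genes. Cd14, the coreceptor for lipopolysaccharide, was at 9.57 ± 0.03, among the tightest of the bright genes, and Unc93b1, which escorts the endosomal receptors, at 8.33 ± 0.13. The brightest receptor was Tlr2 for bacterial lipopeptides (7.60 ± 0.10). Tlr7 and Tlr13, which sense RNA in endosomes, followed at 6.75 ± 0.11 and 6.64 ± 0.21. Tlr9 for unmethylated DNA stood at 4.76 ± 0.15 and Tlr4, the lipopolysaccharide receptor, at 4.40 ± 0.22. Myd88, the adaptor that most of them share, was at 7.34 ± 0.07. Tlr11 (1.68 ± 0.08) and Tlr12 (2.15 ± 0.11), sensors of profilin, were not above background.

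Inflammasome genes, which mature interleukin 1 and trigger pyroptosis, were above background in 10 of 13 cases, against 49.4% of all genes. Casp1, the protease, was at 7.18 ± 0.10, Gsdmd, the pore former that it cleaves, at 5.88 ± 0.14, the sensor Nlrp3 at 5.69 ± 0.15 and the DNA sensor Aim2 at 5.24 ± 0.09. Pycard, the adaptor ASC that links these sensors to Casp1 and that RAW 264.7 cells are known to lack, read 3.07, 3.08, 2.87 and 3.20 (3.06 ± 0.14). That signal is above the background level but ranked 8853rd. Of the substrates, Il18 was at 5.55 ± 0.21, while Il1b read 2.32, 2.45, 2.45 and 2.48 and its mean, 2.43, was not above background. Mefv (1.75 ± 0.17) and the sensor Nlrp1b (2.05 ± 0.07) were not above it either.

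Most cytokine genes were not above background. The count was 7 of 18, against 49.4% of all genes, and the median was log2 2.23. Tgfb1, which encodes the regulatory cytokine TGF beta 1, read 9.33, 9.25, 9.32 and 9.28 (9.29 ± 0.04). Tnf, the early cytokine of macrophage activation, read 9.03, 8.87, 8.52 and 8.63 (8.76 ± 0.23, rank 309); the labels name no stimulus beside the transfection. These 2 genes and Il18 were the cytokines over log2 4. Il1rn, the antagonist of interleukin 1, was at 3.80 ± 0.22. Il6 (1.31 ± 0.04), Ifnb1 (1.40 ± 0.04), Csf1 (1.74 ± 0.15), Il10 (2.18 ± 0.13) and Il12b (2.24 ± 0.09) were not above background.

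Chemokines were led by Ccl3, which attracts monocytes and T cells, at 10.31, 10.08, 9.85 and 9.87 (10.03 ± 0.21), and Ccl9 at 9.81 ± 0.10. Cxcl16 (7.65 ± 0.17) and Ccl4 (6.74 ± 0.13) came next, and 11 of 16 were above background. Ccl12 (1.68 ± 0.20), Ccl22 (1.74 ± 0.01), Cxcl9 (1.90 ± 0.16) and Ccl24 (1.93 ± 0.07) were not. Among their receptors Cx3cr1, which binds fractalkine, was the brightest at 7.91 ± 0.08, followed by C3ar1, the receptor for complement fragment C3a, at 7.04 ± 0.24. Ccr2, the receptor that defines inflammatory monocytes, read 1.99, 2.52, 2.27 and 2.43, and its mean, 2.30, was not above background. Ccr1 (1.92 ± 0.08), Ccr3 (1.41 ± 0.09) and Fpr2 (1.27 ± 0.05) were not above background either. This left 6 of 10 receptors above it, near the share of all genes (49.4%).

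Genes used as labels of polarised states gave mixed signals. Of the classical activation list 7 of 9 were above background with a median of log2 4.06, led by Irf7 (5.81 ± 0.23), the enzyme gene Acod1 (5.35 ± 0.04) and Cd80 (4.57 ± 0.23). Nos2, the inducible nitric oxide synthase, read 2.29, 2.02, 2.11 and 2.04 (2.12 ± 0.12) and was not above background, nor was the costimulator Cd86 (2.09 ± 0.04). Of the alternative activation list 3 of 9 were above background, below the 49.4% of all genes, and none exceeded 3.35, the level of Tgm2. Arg1, the arginase that competes with nitric oxide synthase, was at 2.15 ± 0.07 and Retnla at 1.34 ± 0.11, both not above background; Mgl2 (2.77 ± 0.29) and Clec10a (2.55 ± 0.22) were just above it. Whether these levels differ from those of primary macrophages was not tested.

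All 8 measured genes of antigen presentation on MHC class I were above background, from Tap2, a peptide transporter subunit (3.24 ± 0.13), to B2m, the invariant light chain (11.07, 11.08, 11.02 and 11.08; mean 11.06 ± 0.03). Of class II genes, H2-Ab1 was at 5.29 ± 0.09 and H2-Aa, which encodes the partner chain of the same dimer, at 3.07 ± 0.10; 5 of 6 were above background. The interferon list had 13 of 16 above background, against 49.4% of all genes. Its receptor chain gene Ifnar2 was at 8.44 ± 0.11 and the factor gene Irf9 at 5.99 ± 0.10, and, of induced antiviral genes, Isg15 was at 4.70 ± 0.08, Mx2 at 2.34 ± 0.08, Rsad2 at 1.79 ± 0.09 and Mx1 at 1.44 ± 0.16. The last 3 were not above background. RefSeq types Mx1 and Mx2 as transcribed pseudogenes, so their low signals say little about the interferon response.

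Of 15 genes of the osteoclast programme 11 were above background, against 49.4% of all genes, with a median of log2 4.18. Tnfrsf11a, which encodes the receptor RANK, was at 6.20 ± 0.31, Nfatc1, the master factor of the lineage, at 6.13 ± 0.28 and the proton pump subunit gene Tcirg1 at 7.18 ± 0.08. The enzymes of bone resorption were lower, Ctsk at 4.34 ± 0.23 and Acp5, tartrate-resistant acid phosphatase, at 3.52 ± 0.18. Mmp9 (2.45 ± 0.11), the integrin Itgb3 (2.17 ± 0.21), Oscar (2.09 ± 0.18) and the calcitonin receptor Calcr (1.97 ± 0.06), genes of mature osteoclasts, were not above background.

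The digestive and oxidative machinery was among the brightest. All 21 lysosome genes were above background with a median of log2 8.56. Ctsb, a cysteine protease, read 10.36, 10.69, 10.27 and 10.45 (10.44 ± 0.18), Lamp1, a structural membrane protein, was at 10.06 ± 0.09 and the aspartic protease Ctsd at 9.79 ± 0.16. The cholesterol exporter Npc1 (5.32 ± 0.16) and Gaa, the acid glucosidase (4.75 ± 0.05), were the dim end. All 6 measured genes of the phagocyte NADPH oxidase, which makes superoxide, lay between 7.91 (Ncf4) and 10.02 (Cybb, the catalytic subunit), with Rac2 at 9.82 ± 0.22, Cyba at 8.86 ± 0.20 and Ncf1 at 8.80 ± 0.24. Every measured subunit of the complex was thus among the upper tier of signals.

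Iron handling was uneven. Fth1, the heavy chain of the iron store ferritin, read 11.41, 11.46, 11.49 and 11.42 (11.44 ± 0.04, rank 13) and Hmox1, which releases iron from haem, 6.87 ± 0.11. Slc11a1, the phagosomal metal transporter Nramp1, was at 6.24 ± 0.22. Slc40a1, the iron exporter ferroportin, read 1.67, 1.74, 1.68 and 1.64 and was the only 1 of 8 genes not above background. In lipid handling 13 of 14 genes were above background. Lpl, the secreted lipoprotein lipase, was at 9.86 ± 0.22, Fabp5 at 8.86 ± 0.29 and the cholesterol exporters Abcg1 and Abca1 at 7.43 ± 0.05 and 5.49 ± 0.08. Apoe, a bright gene of many tissue macrophages, read 3.33, 2.95, 2.72 and 2.88 (2.97 ± 0.26) and Fabp4, the paralogue of Fabp5, 1.77 ± 0.13. Defence against oxidants was covered by 12 of 13 genes above background, among them Sod1 (9.85 ± 0.12), Gpx1 (8.95 ± 0.15) and the regulator Nfe2l2 (8.59 ± 0.21). Nqo1, a classical target of that regulator, was not above background (2.12 ± 0.14).

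**Figure D3:**
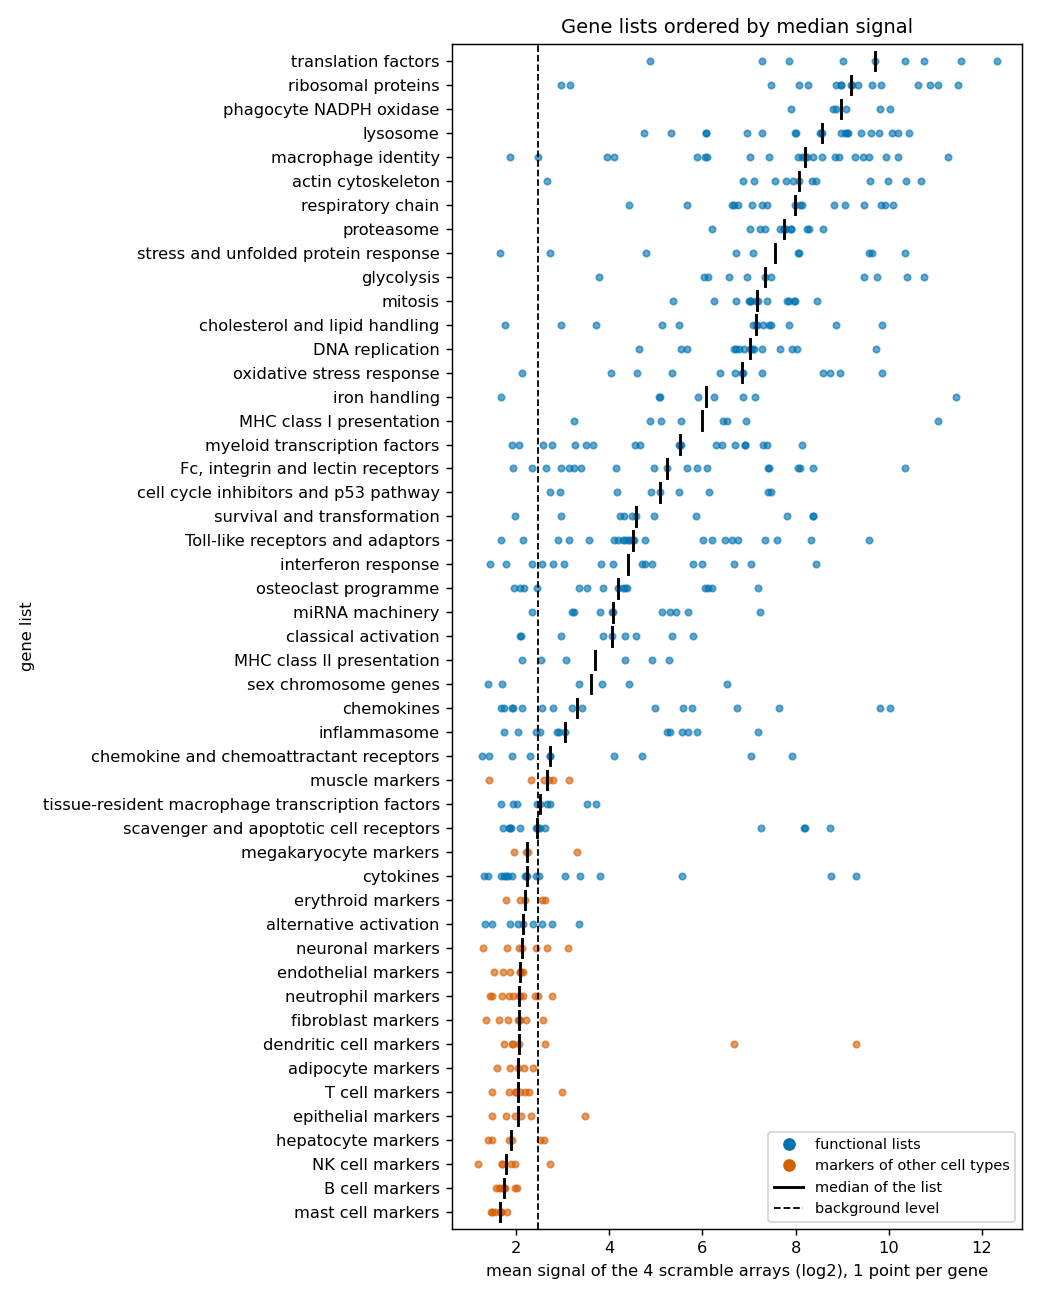
Mean log2 signal over the 4 scramble arrays of each measured gene (points) in 34 functional lists and 15 lists of markers of other cell types, ordered by the list's median (bars); the dashed line is the background level of log2 2.46. Translation factors (9.70) and ribosomal proteins (9.19) have the highest medians, the NADPH oxidase and the lysosome follow, and the medians of the lists of other cell types lie below the background level, except that of muscle (2.66).

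Translation and ribosomal protein genes had the highest list medians. All 9 translation factor genes were above background (median log2 9.70). Eif4a1, the RNA helicase of cap-dependent initiation, had the brightest row of all at 12.22, 12.22, 12.43 and 12.38 (12.31 ± 0.11). A further Eif4a1 row had a mean of 6.13, so this place rests on the row taken. Which transcript the brightest row reports was not tested. Eef1a1, which delivers transfer RNA to the ribosome, was at 11.54 ± 0.10 and Eef2 at 10.75 ± 0.14, while Pabpc1, the poly(A) binding protein, was at 4.87 ± 0.14. All 17 measured ribosomal protein genes of the list were above background (median 9.19), from Rps6 (11.49 ± 0.12) down to Rpl5 (3.15 ± 0.19) and Rps14 (2.97 ± 0.13). Genes whose proteins form 1 particle thus differed widely in signal. The upstream sequence of Rps6 (chr4:86857368-86857617, minus strand) is shown as an example of a bright housekeeping start region, with a CCGGAAGT match, a core of ETS family sites, in capitals at -91.
Rps6: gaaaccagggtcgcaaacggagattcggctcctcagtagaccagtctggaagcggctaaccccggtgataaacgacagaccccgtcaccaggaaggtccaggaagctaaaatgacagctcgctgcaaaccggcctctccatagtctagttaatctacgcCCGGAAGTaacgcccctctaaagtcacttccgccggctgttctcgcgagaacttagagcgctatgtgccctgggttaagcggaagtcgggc
This run holds 19 CG pairs, against 1 in the Lyz2 run, 2 in the Lyz1 run, 4 in the Cd68 run and 6 in the Itgam run printed above. The printed runs were picked as examples, so these counts stand for no group of genes.

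Over the bands of signal, protein-coding promoters differed in base composition. The median ratio of observed to expected CG pairs was 0.610 over all 15358 promoters, 0.672 for genes between the background level and log2 4, 0.808 from 4 to 6, 0.837 from 6 to 8 and 0.818 from 8 to 10; for the receptor genes that set the background it was 0.107. The box GGGCGG, searched on both strands over the same 300-base window, was in 48.8% of all promoters and in 57.6%, 68.1%, 69.0% and 69.0% of those 4 bands. TATAAA was in 12.9% of all and in 8.42%, 5.97%, 5.85% and 11.7% of the bands, and in 39.4% of receptor promoters. CCGGAAGT was in 5.46% of all and in 5.95%, 9.78%, 11.4% and 7.82%. GAGGAA, the PU.1 core, showed no such gradient, at 24.9%, 26.0%, 28.2% and 27.7% of the bands and 28.2% of receptor promoters. Genes at or below background and genes over log2 10 had promoters in under 80% of cases and are left out of the bands. They still count among all promoters, where genes at or below background supply 6959 of the 15358. The shares of the printed bands do not extend to the bands left out. These shares are descriptions of letters in a window.

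In energy metabolism, all 11 glycolysis genes were above background, with Gapdh at 10.75 ± 0.16, Pkm at 10.40 ± 0.14 and Ldha at 3.78 ± 0.17. All 17 nuclear genes of the respiratory chain were too, from the ATP synthase subunits Atp5b (10.08 ± 0.09) to Atp5j (4.43 ± 0.11), with Cycs, cytochrome c, at 9.92 ± 0.10. The 10 measured genes of the mitochondrial genome had a median of 11.41. Proteasome genes formed a compact group, 13 of 13 above background between Psmb6 (6.22 ± 0.08) and Psma3 (8.58 ± 0.28). In the actin cytoskeleton, which drives phagocytosis and migration, all 13 genes were above background. Vim, the intermediate filament protein, was at 10.68 ± 0.11, Arpc2 of the branching complex at 10.37 ± 0.07, Lcp1, the leukocyte bundling protein, at 9.61 ± 0.16, Actb at 8.43 ± 0.14 and Fscn1, a bundling protein of dendritic and tumour cells, at 2.66 ± 0.12. In the stress lists Hsp90b1 (10.34 ± 0.11) and Hspa8 (9.57 ± 0.10), constitutive chaperones, were bright, Atf4 was at 8.07 ± 0.10 and the heat-inducible Hspa1a was not above background (1.65 ± 0.15).

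The cells carried the signature of division. All 15 DNA replication genes were above background (median log2 7.01), led by Pcna, the sliding clamp, at 9.54, 9.79, 9.80 and 9.74 (9.72 ± 0.12) and Rrm1, a ribonucleotide reductase subunit, at 8.03 ± 0.15; the lowest was Tyms at 4.64 ± 0.18. All 14 mitosis genes were above it (median 7.17), from Mki67 (8.46 ± 0.17), Top2a (7.86 ± 0.10) and Cdk1 (7.40 ± 0.06) to Birc5 (5.38 ± 0.18). All 9 genes of cell cycle inhibitors and the p53 pathway were above background as well (median 5.09). Cdkn1a, the inhibitor p21, read 7.70, 7.59, 7.19 and 7.18 (7.42 ± 0.27) and Ccng1, a p53 target, was at 7.46 ± 0.26, whereas Cdkn2a, the locus of p16 and p19ARF that is often lost in cell lines, was at 2.72 ± 0.13, little above background. A row with Trp53 as its only symbol was not among those used here.

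Of survival and transformation genes 10 of 11 were above background, against 49.4% of all genes. Ccnd1, cyclin D1, was at 8.38 ± 0.10, while its paralogue Ccnd2 was the gene not above it (1.98 ± 0.19). Mcl1, a survival factor of myeloid cells, was at 8.37 ± 0.17 and Akt1 at 7.81 ± 0.18. Bcl2 (4.31 ± 0.12) and Myc (4.24 ± 0.11) were intermediate. Abl1, the cellular counterpart of the oncogene in the transforming virus, read 3.06, 3.27, 2.62 and 2.88 (2.96 ± 0.27) and ranked 9114th; whether its probes detect viral transcripts was not tested.

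Because the study manipulated a microRNA, the machinery that makes and uses microRNAs bears on it. Of its genes 10 of 11 were above background, against 49.4% of all genes. Ago2, the Argonaute that cleaves targets, led at 7.34, 7.32, 7.07 and 7.23 (7.24 ± 0.12), ahead of Ago1 (4.06 ± 0.21) and of Ago4, which was not above background (2.34 ± 0.06). Xpo5, the exporter of precursors, was at 5.69 ± 0.18, and the nucleases Drosha and Dicer1 at 5.44 ± 0.11 and 5.12 ± 0.14. The Mir223 gene itself had no row of its own and was not measured here. Of 478 microRNA genes with a row, 119 (24.9%) were above background; Mir5099 (10.86 ± 0.21) and Mir692-1 (9.04 ± 0.16) were among the brightest. Rows for such short genes report RNA from the locus and cannot tell a mature microRNA from its precursor or host transcript.

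Markers of other cell types gave little signal. Of 101 measured genes in 15 lists 20 (19.8%) were above background, against 49.4% of all genes and 368 of 430 (85.6%) genes in the functional lists, and their median was log2 2.00 against 6.05. The functional lists hold many housekeeping genes, and all lists were chosen with earlier results of these data known. The contrast of these markers with the functional lists is therefore a description. None of 8 B cell, 7 mast cell, 7 endothelial or 5 adipocyte markers was above background. T cells had 1 of 8 (Zap70, 2.98 ± 0.20), NK cells 1 of 6 (Prf1, 2.72 ± 0.11), neutrophils 2 of 11 (Cxcr2, 2.76 ± 0.23, and Prtn3, 2.48 ± 0.08; 1 gene without replicate 2 or without replicate 3), fibroblasts 1 of 8 (Col1a1, 2.58 ± 0.06), epithelium 1 of 6 (Krt8, 3.48 ± 0.11) and megakaryocytes 1 of 4 (Pf4, 3.30 ± 0.27). Muscle had 4 of 6, all at or below Myod1 (3.14 ± 0.15). Erythroid cells had 2 of 5, neurons 2 of 7 and hepatocytes 2 of 6. Apart from dendritic cell markers every member of these lists stayed under log2 4. The count rests on the background level: it was 44 with the 90th percentile of receptor genes and 2 with the 99th.

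The dendritic cell list held 2 exceptions among its 7 genes. Bst2, which is also induced by interferon and is not restricted to dendritic cells, read 6.64, 6.63, 6.94 and 6.51 (6.68 ± 0.18). Cd209a, a lectin used as a marker of dendritic cells, read 9.28, 9.43, 9.31 and 9.21 (9.31 ± 0.09, rank 177). Its signal depends on the row: a further Cd209a row read 2.28, 2.20, 2.62 and 2.19, a mean of 2.32, which was not above background. The other dendritic markers included Xcr1 at 2.62 ± 0.03, just above background, and Batf3 at 1.75 ± 0.12.

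The line is known to derive from a male mouse. Of 6 sex chromosome genes, X-linked and Y-linked, 4 were above background, against 49.4% of all genes. The Y-linked Eif2s3y read 6.15, 6.79, 6.72 and 6.46 (6.53 ± 0.29), Kdm5d was at 3.85 ± 0.12 and Uty at 3.36 ± 0.20, while Xist, the RNA that coats an inactive X chromosome, was not above background (1.70 ± 0.11), nor was Usp9y (1.39 ± 0.11). By chromosome, the share of protein-coding genes above background was 63.5% on chromosome 8 and 62.3% on 12 at the high end. At the low end among nuclear chromosomes it was 44.0% on 7, 39.1% on X and 33.3% on Y (5 of 15 genes). These shares include the receptor genes that set the background level, most of which lie below it by definition. How many of them lie on each chromosome was not examined.

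The 25 brightest protein-coding genes were dominated by 9 cytosolic ribosomal proteins and 8 genes of the mitochondrial genome. ND4, a subunit of complex I, read 11.72, 11.78, 11.92 and 11.92 (11.83 ± 0.10), Rpl41 11.74, 11.69, 11.62 and 11.69, and COX1, of cytochrome oxidase, 11.47, 11.75, 11.72 and 11.71. ND1, ND2, ND3, ND5, CYTB and COX3 lay between 11.03 and 11.60, and Rps6, Rpl4, Rpl19, Rpl21, Rpl28, Rpl29, Rpl35 and Rplp1 between 10.88 and 11.49. The remainder were Eif4a1, Eef1a1, Fth1, B2m, Lyz1, Lyz2, Taf1d, a subunit of the RNA polymerase I initiation complex (11.29 ± 0.14), and the pheromone receptor gene Vmn1r233. Taf1d had many further rows, with means from 4.12 to 11.26, so its place rests on the row taken. Which transcript its brightest row reports was not tested. The order within this group was not resolved: of 24 neighbouring pairs, 1 (Eif4a1 above ND4) stood in the same order on all 4 arrays. Membership was firmer. Of the 25 brightest genes of any type by mean, 23 to 24 were also in the top 25 of each single array, of the top 100 it was 92 to 97 and of the top 500 it was 478 to 486. The noncoding genes in the top 25 included Rn7sk, the RNA that holds the elongation factor P-TEFb (12.23 ± 0.03), and Rpph1, the RNA of ribonuclease P (11.17 ± 0.22).

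Vmn1r233 read 11.23, 11.45, 11.44 and 11.47 (11.40 ± 0.11, rank 14), although it belongs to the receptor family used here as background. A further Vmn1r233 row read 1.58, 1.54, 1.33 and 1.32, a mean of 1.44, near the median of the family. Of the 1394 receptor genes 9 exceeded log2 4 and 2 exceeded log2 6, the other being Olfr1454. Olfr1360 was next at 5.44 ± 0.12. What the probes of these rows detect was not tested.

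Types of RNA differed in how often they gave a signal. Long noncoding RNA genes were above background in 322 of 1926 cases (16.7%) and pseudogenes in 145 of 469 (30.9%). Small nucleolar RNAs, guides of ribosomal RNA modification, were above it in 72 of 80 cases with a median of log2 7.71. Mitochondrial ribosomal proteins had 68 of 71 (95.8%) above it and a median of 5.84. Protein-coding genes with symbols that begin with Rpl, Rps or Rplp and a digit had 62 of 72 (86.1%) and a median of 6.34. That match by symbol is looser than the list of ribosomal proteins above. It also takes in symbols of kinases that begin alike, so these values are not those of cytosolic ribosomal proteins alone.

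The 4 arrays were close replicates. Their medians over all rows were log2 2.27, 2.23, 2.26 and 2.25, and 11178, 10632, 10718 and 11120 genes lay above the background of each array itself. Pearson correlations between arrays, across genes, ran from 0.992 to 0.995; genes are not independent replicates and share the array. Differences between genes made up 99.3% of the variance over all genes. Among genes above background the median SD over the 4 arrays was 0.148 (1.11-fold) and 95% of genes had an SD of at most 0.320. The spread hardly depended on level, with median SDs of 0.16, 0.15, 0.13, 0.14 and 0.11 in the bands from background to 4, 4 to 6, 6 to 8, 8 to 10 and over 10. The tightest among the 10% of genes with the highest signal were Prep, a serine peptidase (7.52, 7.53, 7.53 and 7.53, SD 0.006), Zmat2 (7.95, SD 0.009), Cndp2, Nasp and Retreg2. Genes over 2-fold from their own mean numbered 6, 13, 5 and 2 on replicates 1 to 4.

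A small set varied far more, 66 of the 10952 genes (0.603%) with an SD over 0.5. Without replicate 4 that count was 108. In 36 of the 66 the signals of replicates 1 and 2 both lay below those of replicates 3 and 4, a pattern held by 10.6% of all genes above background, and in 3 the reverse was seen, against 28.3% of all genes. The 66 genes were chosen for their spread, so the size of that spread is a description.

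**Figure D4:**
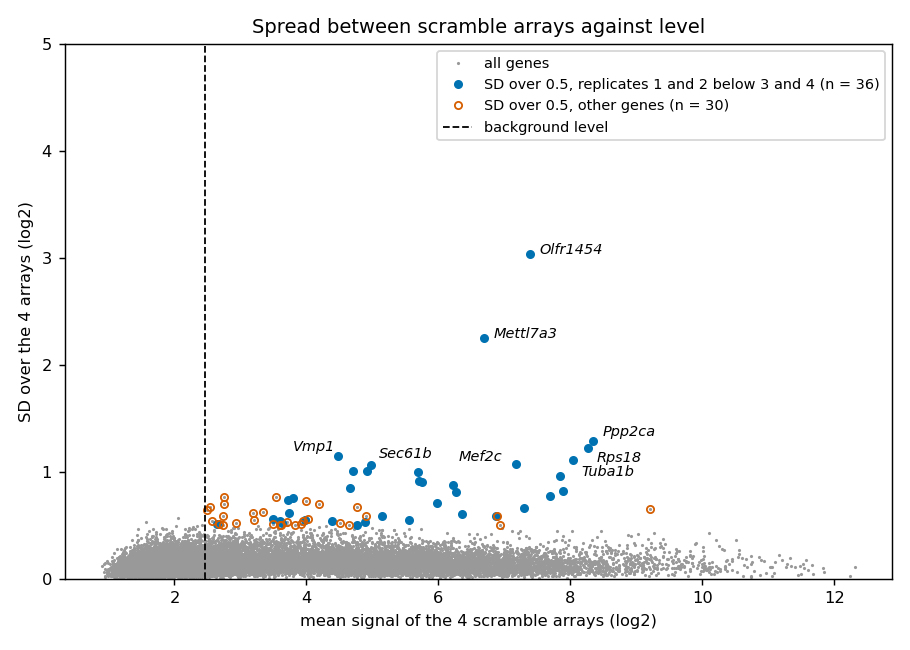
SD over the 4 scramble arrays against mean signal, both log2, with 1 point per gene; filled points mark the 36 genes with an SD over 0.5 and replicates 1 and 2 below 3 and 4, open points the other 30 with an SD over 0.5, and the dashed line is the background level of log2 2.46. Olfr1454 (3.04) and Mettl7a3 (2.25) stand highest, far above the median SD of 0.148.

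Olfr1454, an olfactory receptor gene, read 5.83, 3.88, 9.96 and 9.91. Mettl7a3, a methyltransferase-like gene, read 5.16, 4.37, 8.78 and 8.45 (SD 2.25). Ppp2ca, the catalytic subunit of phosphatase 2A, read 8.36, 6.52, 9.33 and 9.17 (SD 1.29). In each of the 3, replicates 3 and 4 were close to each other and replicate 2 was the lowest. Rps18, a protein of the small ribosomal subunit, read 7.20, 7.21, 9.43 and 9.22, Tuba1b, an alpha tubulin, 7.22, 6.94, 9.03 and 8.95, and Vmp1, a membrane protein of autophagy, 3.65, 3.33, 5.46 and 5.47. Mef2c, a transcription factor of myeloid and muscle cells, read 6.65, 5.95, 8.28 and 7.84. Sec61b, a subunit of the translocon of the endoplasmic reticulum, read 3.66, 4.62, 5.99 and 5.67. Morf4l1-ps1, Chp1, Kansl1, Nme1, Msi2, Zfp526, Cln8 and Ehd1, the others of the 15 most variable named by rule, had SDs of 0.81 to 1.01 and the same split.

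Other rows of the same genes were compared. Of the 36 genes 18 had a further row, 20 rows in all, of which 15 were above background; none had an SD over 0.5, their median SD was 0.166 and 3 of the 20 showed the same order of replicates. For Mef2c the further row read 6.89, 7.04, 6.76 and 6.84, a mean of 6.88 (SD 0.12), beside 7.18 for the brightest row. For Ppp2ca the brighter of 2 further rows read 4.73, 4.81, 4.60 and 4.70 (SD 0.09). For Rps18 the brighter of 2 further rows read 2.57, 2.98, 2.85 and 2.76 (SD 0.17). The further rows of Ppp2ca and Rps18 were much dimmer than the brightest rows, so their small SDs say little about the spread. The 36 genes were also chosen for a large SD of the brightest row, so smaller SDs in further rows follow partly from that choice. The reverse was seen too, in dimmer rows of genes with a steady brightest row. A further Rpl4 row read 6.86, 7.21, 8.98 and 8.53 (SD 1.02), beside an SD of 0.11 for the brightest row. A further Mcl1 row read 5.58, 5.49, 6.90 and 6.85 (SD 0.77), beside 0.17. Such rows were not counted.

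The same 36 rows also varied within the other 2 groups of arrays, which played no part in choosing them. Over the 4 pre-miR-223 arrays their median SD was 0.434, against 0.167 for all genes above background, and 21 of the 36 were in the top 5% of SDs. Over the 4 anti-miR-223 arrays it was 1.29, against 0.244, with 27 of the 36 in the top 5%. Replicate 4 of anti-miR-223 stood apart; without it the median SD was 0.350, against 0.153, with 17 of the 36 in the top 5%. Relative to the mean of its own group, the median of the 36 rows was -0.63, -0.81, 0.74 and 0.49 on scramble replicates 1 to 4, 0.29, -0.57, 0.11 and 0.26 on pre-miR-223 replicates 1 to 4 and 0.56, 0.78, 0.45 and -1.92 on anti-miR-223 replicates 1 to 4. The scramble values follow from how the rows were chosen; in the groups not used for the choice, the median was lowest on pre-miR-223 replicate 2 and anti-miR-223 replicate 4. Over scramble replicates 1 to 4 small nucleolar RNAs had median deviations of -0.21, -0.16, 0.29 and 0.04, and genes of the mitochondrial genome -0.19, 0.02, 0.05 and 0.07. Protein-coding genes above background with the longest spans (51.1 kb or more) had -0.04, 0.11, -0.05 and -0.02 and those with the shortest (up to 9.58 kb) 0.02, 0.03, -0.02 and -0.04. The part of RNA quality or labelling in these shifts was not tested.

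**Figure D5:**
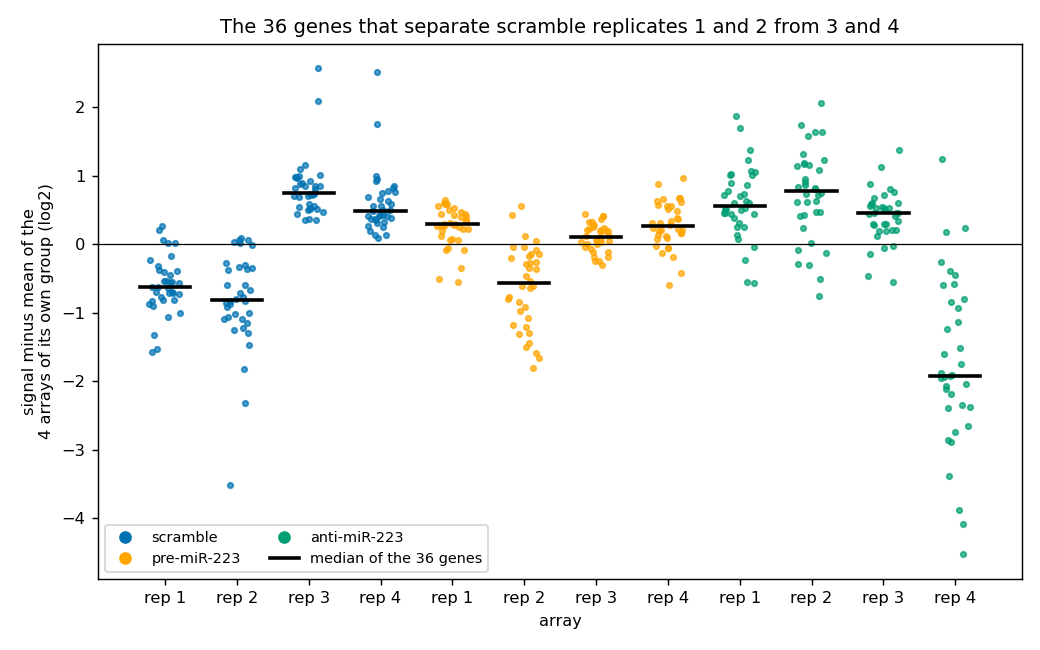
Deviation of each of the 36 rows from the mean of the 4 arrays of its own group (log2, points) on all 12 arrays, coloured by group, with the median as a bar. The medians are -0.63 and -0.81 on scramble replicates 1 and 2, 0.74 and 0.49 on replicates 3 and 4, and -1.92 on anti-miR-223 replicate 4.

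How far a level depends on the row was measured in the 1082 symbols with more than 1 row. Of 964 pairs of rows in which the brightest was above background, the other was above it in 605, and 652 pairs (67.6%) were over 2-fold apart, with a median difference of log2 1.77. Eif4a1, the gene with the brightest row, had a further row at 6.13. Gapdh had further rows at 10.13 and 3.95. For symbols of this kind the rank holds for the brightest row alone.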

How the data were processed

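The authors deposited 1 table of log2 signals for 41345 rows on 12 arrays. Per the labels' protocols, RNA came from a miRNeasy extraction, was checked on a Bioanalyzer and was labelled with WT PLUS reagents for Affymetrix arrays. Expression Console, RMA and Partek are listed in the submitters' processing notes without versions or roles; the genome build is not given in the sources used here. The base of the logarithm was taken as 2. RMA equalises the arrays' distributions, so total RNA per cell cannot be seen, and arrays give no count depth; their number (4) limits the precision.

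Rows were named through a platform annotation: 23521 had 1 symbol, 1814 had several and 16010 were unnamed. Of the 22180 symbols, 21994 matched the RefSeq gene table (GRCm38.p6), used for gene types, spans and promoters. Values are means ± SD over the 4 scramble arrays as deposited, computed with Python 3.11.15, pandas 2.3.3 and numpy 2.4.6; the steps were tested on simulated data. No groups were compared and no p-value was computed. The background level is the 95th percentile of receptor gene means; for a single array it ran from log2 2.44 to 2.52. The lists held 589 distinct genes, of which 530 were measured and 59 had no row. The members and lists were chosen with earlier results of these data known.

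By rule, the genes named were the 4 markers, the 25 brightest protein-coding genes, the highest and lowest gene of each list with up to 4 on the minority side of the background level, the 15 most variable genes above background (leaving out predicted and receptor genes), the 5 least variable of the 10% of genes with the highest signal, and a fixed set. Other genes were chosen as examples after their values were seen. Alternatives covered the choice of row, centring, repeated quantile normalisation, the background level, the median and each array left out.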

Additional observations from a re-analysis of the deposited data

Results flagged for a closer look

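Among the genes named, 7 of 279 had 1 array set apart from the other 3, with a gap that took up more of the range than Dixon's critical value for 4 samples; chance gives about 1 group in 20, and 604 of all 10952 genes above background (5.51%) met the same limit. Blk read 1.80 on replicate 4 and Calcr 1.88 on replicate 4, both at background. Gata1, an erythroid factor not above background, read 2.04 on replicate 1, and H2-DMb1 read 2.36 on replicate 2. COX1 read 11.47 and Vmn1r233 11.23 on replicate 1, both the low array. Gaa read 4.82 on replicate 1, where the other arrays lay at 4.72 to 4.73.

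Of the 49 lists, 2 had a median set apart on 1 array: the lysosome median was log2 8.51 on replicate 4, and the ribosomal protein median was 9.42 on replicate 2.

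Outside the named genes, 5715 of the 16010 rows that the annotation leaves without a symbol (35.7%) had a mean above the background level. What these rows detect was not tested.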

How the results depend on the processing

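The counts of genes above background moved with the background level: 10952 genes became 7588 with the 99th percentile of receptor genes, 13877 with the 90th and 14634 with the 40th percentile of all rows. Markers of other cell types above background, 20 as reported, were 44 with the 90th percentile, 2 with the 99th and 51 with the 40th percentile of all rows, and 19 to 21 when each replicate was left out. Genes with an SD over 0.5, 66 as reported, were 67 to 108 when each replicate was left out, 108 without replicate 4. The levels of Lyz2, Cd68, Csf1r and Spi1 moved by less than their SD under every alternative tried. Of 2511 levels of named genes under alternatives, 2481 moved by less than the gene's SD; the other 30 moved under the mean of all rows of a symbol. Of 539 list counts, 497 stayed within 1.5 times and 42 did not, most under another background level; the cause was not tested. The SD of the 36 rows over anti-miR-223 arrays, 1.29, was 0.350 without its replicate 4, an alternative added after the data were seen. No paired analysis was possible because no groups were compared.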
